A study of Mus musculus with 2 samples.

Results

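Igf2, H19, Meg3, Dlk1, Cdkn1c, Peg3, Mest, Ndn, Plagl1 and Grb10 are imprinted genes with known roles in growth, and they are described here in mouse oligodendrocyte-lineage cultures labelled control and Seh1cKO (Seh1, a nuclear pore component, is encoded by Seh1l). The 10 genes were taken by name, and they and the gene lists below were chosen with earlier results of these data known. All 10 were among the 18651 genes listed for the series. They were also among the 13758 genes called measured, whose average over both libraries reached 1 CPM (counts scaled to a library total of 1000000). The study sequenced 1 control library, labelled wild type, and 1 Seh1cKO library, labelled mutant. Both came from C57BL/6 mice of postnatal days 4 to 7. Oligodendrocyte precursor cells were immunopanned from cortex with antibodies to GalC and then O4, expanded, and differentiated with 60 nM triiodothyronine (T3) in medium without PDGF-AA, bFGF and NT3; the libraries are from day 2 of T3. The sources used here do not give the Cre driver, the deleted exons, the number of animals behind a library or their sex.

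With 1 library per group no difference could be tested against replicate spread. Each fold below is the ratio of CPM between the 2 libraries, followed by its exact 95% Clopper-Pearson interval. These intervals cover counting error only, because each is computed from the counts of the 2 libraries, without replicates. They treat reads as independent molecules, which reads without molecular identifiers are not, so counting error itself may be understated. The libraries held 20730114 reads in control and 20599590 in Seh1cKO, so that a gene without reads may lie anywhere up to 3 reads, or 0.145 and 0.146 CPM. Seh1l was at 32.1 CPM (control) and 18.5 CPM (Seh1cKO), 1.73-fold lower (1.53 to 1.97). All 12 markers of the oligodendrocyte lineage were measured, and 8 of them were at least 2-fold lower in Seh1cKO. Astrocyte markers summed to 11028 CPM (control) and 7013 CPM (Seh1cKO), with 5200 and 2214 CPM from Gfap alone, above the 4716 and 2680 CPM of the lineage markers. All 8 astrocyte markers were measured, and 2 of them were at least 2-fold lower in Seh1cKO. Gja1 was 1.40-fold higher (1.33 to 1.48) and Aldh1l1 1.17-fold higher (1.13 to 1.20). The libraries therefore held the labelled lineage together with abundant RNA of astrocyte marker genes. In such bulk RNA, fewer cells of a type and less RNA per cell cannot be told apart. The libraries also stood apart in sex-linked genes. Xist was at 0.868 CPM (control) and 341 CPM (Seh1cKO), while Ddx3y, Eif2s3y, Kdm5d and Uty were at 10.6 to 82.2 CPM in control and at no more than 0.146 CPM in Seh1cKO. A difference in the sex of the cells therefore cannot be told apart from the genotype in any value below.

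Imprinted genes are expressed from 1 parental allele, chosen by DNA methylation set in the egg or the sperm. Many lie in clusters in which a methylated control region governs several neighbours, and in which a non-coding RNA and a protein-coding gene are often expressed from opposite alleles. Paternally expressed genes of this class tend to promote growth of the embryo and maternally expressed ones tend to restrain it, and several remain active in the postnatal brain. The deposited values do not separate the parental alleles, and methylation is not analysed here.

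Sequences upstream of start sites of Igf2, Mest, Peg3 and Grb10 are given as background. Igf2, Mest, Grb10 and Meg3 have several listed starts, and CG dinucleotides are sites of DNA methylation. No level or ratio below depends on these sequences. RefSeq (GRCm38.p6) listed promoter windows for 8 of the 10 members, with 15 start sites. The stretches are 100 bases long, from 140 to 41 bases before the start, read 5′ to 3′ on the strand of the gene, with each CG in capitals. Both sequence strands give the same count of CG.
Igf2, start 142666816, chr7:142666857-142666956, minus strand: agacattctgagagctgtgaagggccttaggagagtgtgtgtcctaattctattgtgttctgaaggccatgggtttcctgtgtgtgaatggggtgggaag
Igf2, start 142661271, chr7:142661312-142661411, minus strand: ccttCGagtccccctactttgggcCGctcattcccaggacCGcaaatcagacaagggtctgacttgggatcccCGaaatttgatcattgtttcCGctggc
Igf2, start 142657496, chr7:142657537-142657636, minus strand: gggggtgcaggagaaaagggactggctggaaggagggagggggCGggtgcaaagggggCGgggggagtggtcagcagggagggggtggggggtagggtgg
Mest, start 30738050, chr6:30737910-30738009, plus strand: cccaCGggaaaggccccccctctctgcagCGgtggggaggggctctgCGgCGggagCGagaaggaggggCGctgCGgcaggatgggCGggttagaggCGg
Peg3, start 6730419, chr7:6730460-6730559, minus strand: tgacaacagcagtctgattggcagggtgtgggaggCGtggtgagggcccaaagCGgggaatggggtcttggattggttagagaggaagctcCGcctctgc
Grb10, start 12037420, chr11:12037461-12037560, minus strand: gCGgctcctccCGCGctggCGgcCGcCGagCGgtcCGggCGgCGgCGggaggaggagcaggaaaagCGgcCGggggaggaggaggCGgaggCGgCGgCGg
Grb10, start 12027971, chr11:12028012-12028111, minus strand: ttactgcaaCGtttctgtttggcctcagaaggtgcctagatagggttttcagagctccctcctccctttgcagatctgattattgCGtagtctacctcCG
The most upstream Igf2 stretch held 0 CG, against 5 and 2 in the other two, and the outer Grb10 stretch held 17 CG against 3 in the inner one. Over the whole 300-base windows (250 bases before to 50 after the start), the outer Grb10 start had 45 CG, a number reached by 1.93% of all 32851 RefSeq promoter windows. The Mest window of the start at 30738050 had 17 CG (at least as many in 31.4% of windows) and the Peg3 window 13 (37.9%). The most upstream Igf2 window had 2 CG, a number reached by 85.9% of windows, while the Igf2 window of the start at 142661271 had 14 (36.3%) and the median over all windows was 7. A further Igf2 start, at 142658804, had the most CG of the 4, 24 (20.0%); its stretch is not printed because it holds an exon.

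H19 is also the host of a microRNA, Mir675, whose 2 mature arms lie on the minus strand in an exon of H19. They are shown because they are cut from the H19 transcript, which was among the lower members; the capitals mark the seed, bases 2 to 8, and both sequences are from RefSeq (GRCm38.p6).
mmu-miR-675-5p, chr7:142577112-142577133: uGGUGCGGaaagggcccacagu
mmu-miR-675-3p, chr7:142577078-142577099: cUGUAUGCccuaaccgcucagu
The arms have different seeds, and small RNA is not analysed here. Igf2 (Mir483), Meg3 (Mir770 and Mir1906-1) and Mest (Mir335) also host microRNAs, whose sequences are not printed.

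Of the 10 members, Cdkn1c and H19 were at least 2-fold lower in Seh1cKO, none was at least 2-fold higher, and 8 lay within 2-fold. Over all 13758 measured genes, 178 (1.29%) were at least 2-fold lower and 394 (2.86%) at least 2-fold higher, where this threshold is applied to the log2 ratio of CPM + 1. The log2 ratio was above 0 for 6 members, against 60.9% of all measured genes, and the members' median was 0.36 beside 0.07 for all genes. The counting interval lay above 1 for 5 members (35.5% of all measured genes) and below 1 for 4 (20.0%), and it included 1 for Dlk1. The members thus spread to both sides, from -1.58 for Cdkn1c to 0.95 for Mest. Their summed level was 2562 CPM (control) and 1600 CPM (Seh1cKO), but 544 and 684 CPM without H19, so that the direction of the sum was set by H19 alone.

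**Figure D1:**
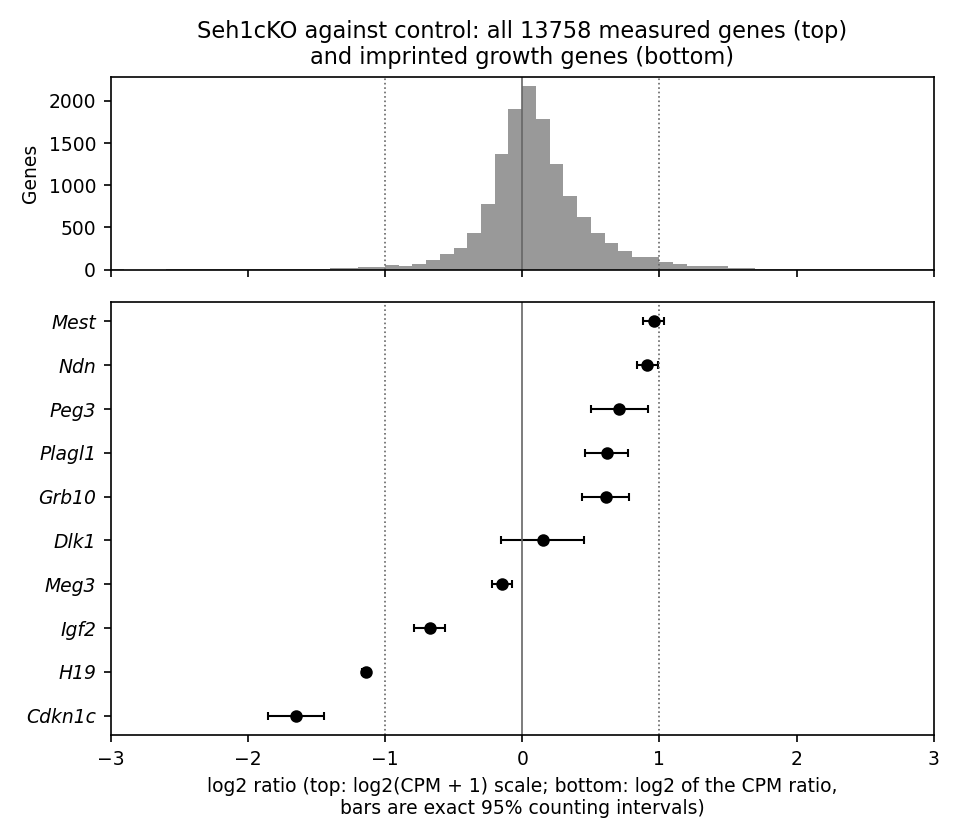
Log2 ratio of Seh1cKO over control for all measured genes (upper panel, histogram on the log2(CPM + 1) scale, 23 genes beyond the axis) and for each of the 10 members (lower panel, log2 of the CPM ratio; bars are exact 95% counting intervals; 1 library per group). Cdkn1c and H19 lie beyond 2-fold lower, Mest and Ndn lie just inside 2-fold higher, and the bar of Dlk1 crosses 0.

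Per unit of length, H19 was the most abundant member by far. Its level was 879.7 FPKM (fragments per kilobase of length, scaled to the library's depth) in control, rank 67 of all listed genes, and 399 FPKM in Seh1cKO, rank 191. In control the order after H19 was Ndn (61.0 FPKM), Meg3 (42.1), Mest (38.0), Igf2 (32.5), Cdkn1c (21.0), Plagl1 (4.95), Grb10 (4.59), Peg3 (2.21) and Dlk1 (1.92). Plagl1 and Grb10 did not differ beyond counting error (ratio 1.08, 0.953 to 1.22), nor did Peg3 and Dlk1 (1.16, 0.957 to 1.40). In Seh1cKO the order was H19, Ndn (114.6), Mest (72.6), Meg3 (35.1), Igf2 (16.7), Plagl1 (7.59), Grb10 (6.96), Cdkn1c (6.70), Peg3 (3.61) and Dlk1 (2.15). Mest and Meg3 exchanged places, and Cdkn1c moved from the sixth to the eighth place, where it was not separated from Grb10 (ratio 1.05, 0.911 to 1.22). H19 exceeded the next member, Ndn, 14.5-fold in control and 3.50-fold in Seh1cKO.

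**Figure D2:**
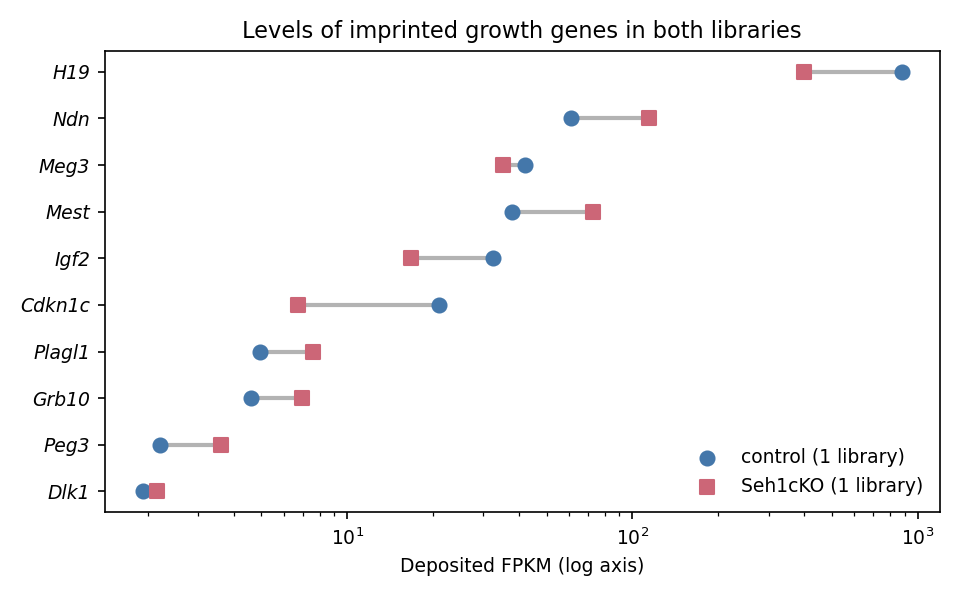
FPKM of each of the 10 members in the control and the Seh1cKO library on a log axis (1 point per library, no replicates). H19 stands far above the other members in both libraries, and Cdkn1c goes from 21.0 to 6.70 FPKM while Mest goes from 38.0 to 72.6 FPKM.

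Igf2 and H19 were both lower in Seh1cKO, H19 by the larger fold. Igf2 encodes insulin-like growth factor 2, a fetal growth factor expressed mainly from the paternal allele, and H19 is a maternally expressed long non-coding RNA of the same domain. H19 (Entrez gene 14955, chr7:142575530-142578146 in GRCm38, minus strand) had 41846 reads in control and 18864 in Seh1cKO, or 2019 and 916 CPM. That is 2.20-fold lower (2.17 to 2.24), and 0.974% of measured genes had a lower ratio. Igf2 (Entrez gene 16002, chr7:142650768-142666816, minus strand) had 1686 and 1050 reads, or 81.3 and 51.0 CPM. It was 1.60-fold lower (1.48 to 1.73), and 2.75% of measured genes had a lower ratio. The genes lie 72.6 kb apart. Within a library, H19 had 24.8 reads per Igf2 read in control (23.6 to 26.1) and 18.0 in Seh1cKO (16.9 to 19.1). Igf2os, antisense to Igf2, had 5 and 8 reads, few beside the Igf2 reads; the sources used here do not say whether counting used strand. Th, the tyrosine hydroxylase gene beyond Igf2, had 4 and 6 reads.

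The deposited length of Igf2, which the FPKM values divide by, also differed between the libraries. It was 2495 bases in control and 3027 bases in Seh1cKO, 1.21-fold longer, and only 12 of 13736 measured genes listed in both libraries (0.0874%) were at least 1.2-fold longer. Per length, Igf2 was therefore 1.94-fold lower (32.5 against 16.7 FPKM) rather than 1.60-fold. The GENCODE M21 transcripts that match the RefSeq transcripts listed for Igf2 range from 650 bases, for the one that starts at 142666816, to 4722 bases, for one that starts at 142659489, with 3708 and 3970 bases for the other two. Reads per isoform were not analysed here. The deposited length of Meg3 was 3652 bases in control and 3950 in Seh1cKO (1.08-fold). Igf2 and Meg3 were the 2 members at least 1.05-fold longer, against 1.14% of measured genes, and Mest and Grb10 were longer by less than that. Igf2 and Meg3 were singled out after their lengths had been seen. Ndn, Plagl1 and Peg3 had the same length in both libraries.

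**Figure D3:**
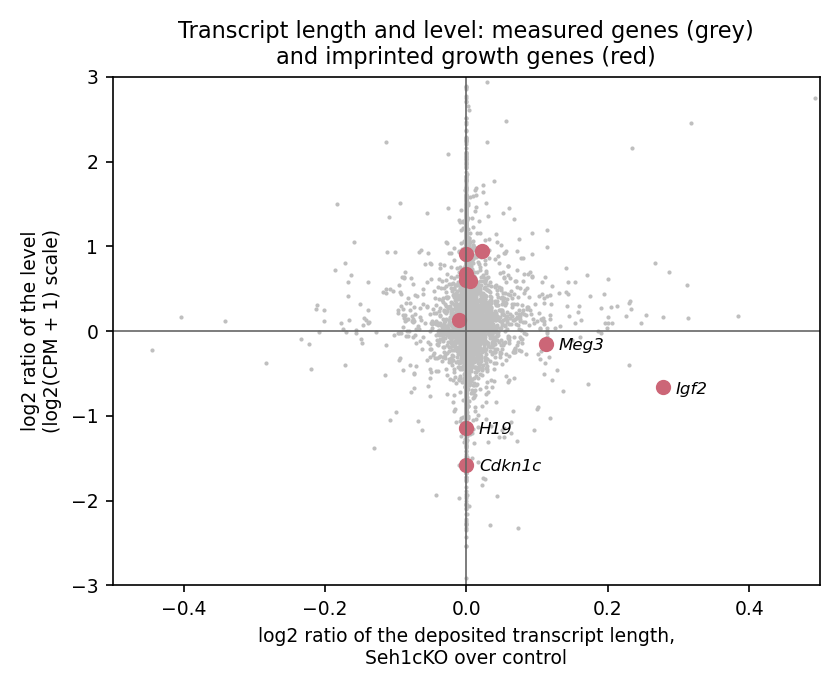
Each point is a measured gene listed in both libraries, with the log2 ratio of its deposited length (x axis) and of its CPM + 1 (y axis), Seh1cKO over control. Members are coloured, and 4 genes lie beyond the x axis and 17 beyond the y axis. Igf2 lies to the right with Meg3 nearer the centre line, whereas H19 and Cdkn1c are lower with no change of length.

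Cdkn1c had the lowest ratio of the members and was the only one of the CDK inhibitors examined that was at least 2-fold lower. It encodes p57, an inhibitor of cyclin-dependent kinases that restrains proliferation, and it is maternally expressed. Cdkn1c (Entrez gene 12577, chr7:143458339-143461059, minus strand) had 836 reads in control and 265 in Seh1cKO, or 40.3 and 12.9 CPM. It was 3.13-fold lower (2.73 to 3.61), and 0.531% of measured genes had a lower ratio. All 7 other CDK inhibitors were measured and lay within 2-fold, as did 13186 of all 13758 measured genes. Their median log2 ratio was 0.11, beside 0.07 for all genes. Cdkn1a (p21) was at 335 and 449.6 CPM, 1.34-fold higher (1.30 to 1.38). Cdkn1b (p27), of the same family, was at 102 and 104 CPM, 1.02-fold higher with an interval that included 1 (0.957 to 1.08). Cdkn3 was 1.64-fold higher (1.29 to 2.10), Cdkn2c 1.25-fold higher (1.14 to 1.37), and Cdkn2d 1.24-fold lower (1.14 to 1.35).

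The neighbours of Cdkn1c in the Kcnq1 domain did not share its low ratio. Kcnq1ot1, the paternally expressed non-coding RNA of the domain, 162 kb from Cdkn1c, was at 68.9 CPM (control) and 80.1 CPM (Seh1cKO), 1.16-fold higher (1.08 to 1.25). For each Cdkn1c read there were 1.71 Kcnq1ot1 reads in control (1.57 to 1.86) and 6.23 in Seh1cKO (5.47 to 7.12). Among neighbours maternally expressed in at least some tissues, Slc22a18, a transporter gene, had 36 and 70 reads and was 1.96-fold higher (1.29 to 3.01). Osbpl5 was 1.32-fold higher (1.18 to 1.48), and Tssc4 was 1.17-fold lower (1.10 to 1.24). Nap1l4 was 1.11-fold higher (1.07 to 1.15) and Cd81 1.05-fold higher (1.03 to 1.07), while Ascl2, with 16 and 26 reads, had an interval that included 1. Kcnq1 and Phlda2 were below the level called measured, with 3 and 9 reads and 0 and 3 reads. Kcnq1ot1 lies antisense within Kcnq1, so their reads could not be separated without strand.

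Igf2, H19 and Cdkn1c lie in the same stretch of chromosome 7, where Cdkn1c lies 880.2 kb from H19. From 200 kb before to 1200 kb after the first base of H19, 15 other genes were measured. None of them was at least 2-fold lower, 11 had a log2 ratio above 0, and their median was 0.13, with a range of -0.27 to 1.01. The highest, Tnfrsf23, a decoy receptor gene of the tumour necrosis factor receptor family, is named after its value was seen. The 3 members were the genes with the 3 lowest ratios of that stretch.

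**Figure D4:**
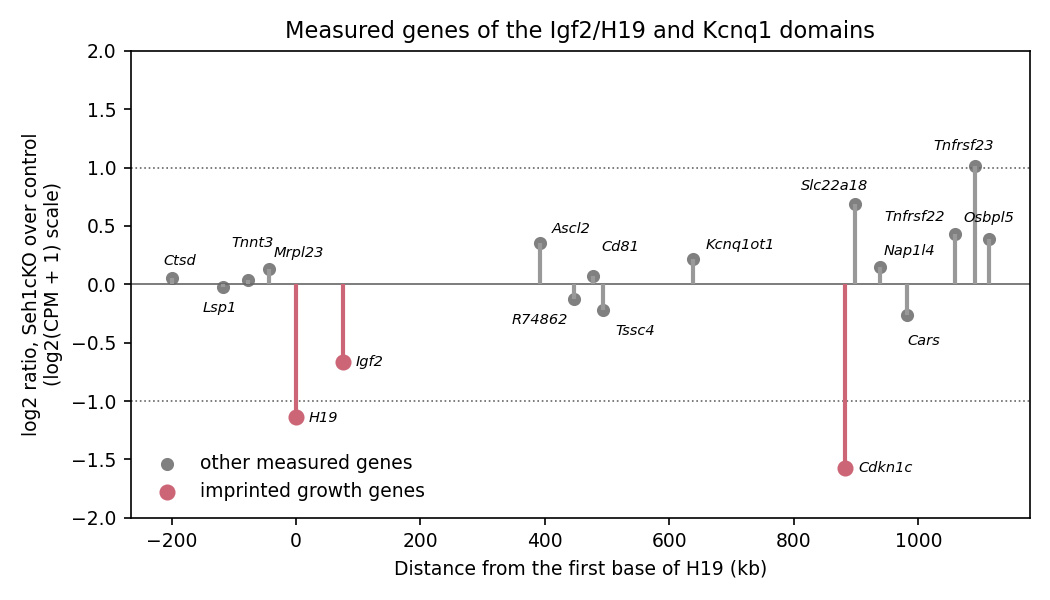
Log2 ratio of every measured gene from 200 kb before to 1200 kb after H19, by distance from H19 (x axis, kb; y axis, log2(CPM + 1) scale, Seh1cKO over control, 1 library per group; members coloured). H19, Igf2 and Cdkn1c lie at -1.14, -0.66 and -1.58, below the 15 other genes at -0.27 to 1.01.

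Grb10 encodes an adaptor that restrains insulin and IGF receptor signalling, and which of its alleles is active depends on the tissue. Grb10 (Entrez gene 14783, chr11:11930499-12037428, minus strand) had 467 reads in control and 707 in Seh1cKO, or 22.5 and 34.3 CPM, 1.52-fold higher (1.35 to 1.72). Of its neighbours, Ddc, the aromatic amino acid decarboxylase gene, had 89 and 27 reads and was 3.28-fold lower (2.11 to 5.24). Cobl was 1.34-fold higher (1.06 to 1.70).

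Plagl1 and Peg3, which encode paternally expressed zinc finger proteins, were higher in Seh1cKO. Plagl1 (Entrez gene 22634, chr10:13090832-13131694, plus strand), a transcription factor known to regulate other imprinted genes, had 548 and 835 reads, or 26.4 and 40.5 CPM. It was 1.53-fold higher (1.38 to 1.71). Peg3 (Entrez gene 18616, chr7:6703892-6730462, minus strand) had 308 and 500 reads, or 14.9 and 24.3 CPM, 1.63-fold higher (1.41 to 1.89). Phactr2, 76.0 kb from Plagl1 and not its nearest measured gene, was 1.69-fold higher (1.48 to 1.93). Over the 9 measured genes within 500 kb of Plagl1 the median log2 ratio was 0.14, beside 0.07 for all genes. Beside Peg3, Usp29 had 52 and 49 reads with an interval that included 1, and Zim1 had 2 and 11 reads (ratio 5.53, 1.21 to 51.4). Peg3os, which overlaps Peg3, had a log2 ratio of 0.55, beside 0.67 for Peg3. Without knowledge of strand their overlapping reads cannot be told apart.

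Mest and Ndn were the members with the highest ratios, both close to 2-fold. Mest, also paternally expressed, encodes a protein of the alpha/beta hydrolase fold, and Ndn encodes necdin, a MAGE family protein linked to the growth arrest of neurons. Mest (Entrez gene 17294, chr6:30733506-30748466, plus strand) had 1955 reads in control and 3773 in Seh1cKO, or 94.3 and 183 CPM. It was 1.94-fold higher (1.84 to 2.05), with 96.6% of measured genes at a lower ratio. Ndn (Entrez gene 17984, chr7:62348277-62349928, plus strand) had 2081 and 3887 reads, or 100.4 and 189 CPM, 1.88-fold higher (1.78 to 1.98). Here 96.1% of measured genes had a lower ratio.

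Neither member's domain moved as a block. Beside Mest, Copg2, which overlaps it on the opposite strand, was at 101 and 99.9 CPM (1.01-fold lower, 0.952 to 1.08), and without knowledge of strand their overlapping reads cannot be told apart. Cpa4, a carboxypeptidase gene 141 kb from Mest, had 27 and 71 reads and was 2.65-fold higher (1.68 to 4.29), and Klf14 had 0 and 3 reads. Over the 8 measured genes within 500 kb of Mest the median log2 ratio was 0.07. Of the 4 measured genes within 500 kb of Ndn, 2 had a log2 ratio above 0 (Peg12 and Mkrn3) and 2 below, A230057D06Rik at -0.59 and A330076H08Rik at -0.999, both named after their values were seen. The median of these 4 was -0.22. In the wider imprinted domain around Ndn and Snrpn, Peg12 was 1.55-fold higher (1.30 to 1.85) and Atp10a, with 88 and 180 reads, 2.06-fold higher (1.59 to 2.69). Magel2, the relative of Ndn in the MAGE family, had 5 and 24 reads (ratio 4.83, 1.81 to 16.2). Mkrn3 and Ube3a had intervals that included 1. Snrpn, a splicing factor gene of the same paternal region, was at 164 and 112 CPM, 1.47-fold lower (1.40 to 1.55). Snurf, which shares its transcript, was 1.52-fold higher (1.19 to 1.95) on 111 and 168 reads, so how reads were divided between them is uncertain.

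Dlk1 and Meg3 stayed nearest to equal levels. Dlk1 encodes a paternally expressed membrane protein of the Notch ligand family, and Meg3 is the maternally expressed long non-coding RNA 77.7 kb away. Dlk1 (Entrez gene 13386, chr12:109452485-109463336, plus strand) had 176 reads in control and 194 in Seh1cKO, or 8.49 and 9.42 CPM. Its ratio was 1.11-fold higher with an interval from 0.900 to 1.37, so no difference was detectable at this depth. Meg3 (Entrez gene 17263, chr12:109540996-109571729, plus strand) had 3213 and 2881 reads, or 155 and 140 CPM, 1.11-fold lower (1.05 to 1.17). Meg3 reads per Dlk1 read were 18.3 in control (15.7 to 21.4) and 14.9 in Seh1cKO (12.8 to 17.3), with overlapping intervals. Rian, a maternally expressed non-coding RNA downstream of Meg3, was at 51.6 and 63.7 CPM, 1.23-fold higher (1.14 to 1.34). Rian and Meg3 therefore lay on opposite sides, with 0.333 Rian reads per Meg3 read in control (0.310 to 0.357) and 0.456 in Seh1cKO (0.427 to 0.487). Mirg had 26 and 31 reads with an interval that included 1, and Rtl1 and Dio3 had no more than 10 reads in either library.

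Grouped by the parental allele that is known to be expressed, 5 of the 6 paternally expressed members had a log2 ratio above 0. The interval of Dlk1, 1 of these 5, included 1, and Igf2 was lower. The median log2 ratio of the 6 was 0.64. Over all measured genes, 60.9% had a log2 ratio above 0. All 3 maternally expressed members were lower, with a median of -1.14. Both groups of other imprinted genes lay near that share, at 57.9% and 52.9%. Of 24 further paternally expressed genes 19 were measured, 11 with a log2 ratio above 0 and a median of 0.07. Of 26 further genes that are maternally expressed in at least some tissues, 17 were measured, 9 with a log2 ratio above 0 and a median of 0.15. Whether they are imprinted in these cells is not known from these values. Of the 36 measured genes in both groups, 1 was at least 2-fold higher on the log2(CPM + 1) scale, Zdbf2 (2.57-fold, 1.89 to 3.52, on 60 and 153 reads), and 1 was at least 2-fold lower, Ddc. Airn, the antisense RNA of Igf2r, had 36 and 16 reads and was 2.24-fold lower by CPM (1.21 to 4.32). It overlaps Igf2r on the opposite strand, so their reads are likewise uncertain without strand.

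Genes of IGF signalling, through which Igf2 acts, were mostly higher in Seh1cKO. Of 22 listed genes 17 were measured, and 15 of these had a log2 ratio above 0, with a median of 0.35. Over all measured genes, 60.9% had a log2 ratio above 0, and the median was 0.07. Of the ligands, Igf1 had 24 and 22 reads, 1.16 and 1.07 CPM. The receptors are named for their role. Igf1r, the signalling receptor, was at 88.3 and 125 CPM, 1.41-fold higher (1.33 to 1.50), and Insr, the insulin receptor, 1.27-fold higher (1.17 to 1.38). Igf2r, the receptor that clears Igf2 and is itself maternally expressed, was at 49.2 and 94.2 CPM, 1.92-fold higher (1.78 to 2.07). There were 0.604 Igf2r reads per Igf2 read in control (0.559 to 0.654) and 1.85 in Seh1cKO (1.71 to 1.99), so the order of ligand and clearance receptor by reads was exchanged; per length Igf2r stayed below Igf2, at 0.167 and 0.62 of its FPKM.

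The IGF binding proteins, which hold the ligands in the extracellular space, included the 4 genes of this list with the highest FPKM in both libraries, Igfbp2, Igfbp3, Igfbp5 and Igfbp7. Igfbp2 was at 2916 and 4031 CPM, 1.38-fold higher (1.37 to 1.40), and Igfbp3 at 614 and 1218 CPM, 1.98-fold higher (1.94 to 2.03). Igfbp4 was at 18.0 and 71.1 CPM, 3.95-fold higher (3.53 to 4.44), and was the only gene of the list past the 2-fold threshold on the log2(CPM + 1) scale. Igfbp7 was 2.02-fold higher by CPM (1.79 to 2.27), and Igfbp5 was at 221 and 224 CPM with an interval that included 1. Among adaptors downstream of the receptors, Shc1 was 1.98-fold higher (1.82 to 2.16) and Irs2 1.86-fold higher (1.67 to 2.07). Grb14, the close relative of Grb10, was at 12.3 and 10.5 CPM with an interval that included 1 (1.17-fold lower, 0.971 to 1.41).

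Markers of other cell types also differed between the libraries, with a median above 0 for most lists and below 0 for the astrocyte list. Many imprinted growth genes and IGF binding proteins are known to be expressed in mesenchymal cells. The part of such cells in the members' ratios, which went in both directions, was not tested. Of 12 fibroblast and meningeal markers 11 were measured and 7 were at least 2-fold higher in Seh1cKO. Their sum went from 151 to 492 CPM, none was at 0, and Col1a1 was at 45.2 and 184 CPM. Epithelial and mesothelial markers summed to 11.2 and 204 CPM, with 6 of 7 measured genes at least 2-fold higher, led by Krt8 (0.772 and 78.7 CPM), while Upk3b and Wt1 were at 0 in Seh1cKO. Mural markers summed to 126 and 232 CPM, and choroid plexus markers to 21.0 and 41.6 CPM. Endothelial markers summed to 27.8 and 59.6 CPM, mainly from Slco1c1 (16.1 and 32.3 CPM) and Cdh5 (1.01 and 13.8 CPM). Kdr was at 5.35 and 4.95 CPM. Of the 10 endothelial markers 5 were not measured, among them Cldn5 with 0 and 1 reads. Neuronal markers summed to 430.1 and 468 CPM, a sum made up mostly of Map2 (279 and 270.1 CPM), but 8 of the 10 had a log2 ratio above 0, with a median of 0.70, and Nefl and Stmn2 were at least 2-fold higher. Microglial markers summed to 8.39 and 18.0 CPM.

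The lineage markers went in both directions. Mag, Mbp and Enpp6, genes of myelin and of cells that begin to make it, were 16.5-fold, 9.86-fold and 6.75-fold lower. The precursor genes Pdgfra and Cspg4 were 1.77-fold and 1.50-fold higher; both are also known to be expressed by fibroblasts or mural cells, whose markers were higher too. Sox10, a gene of all stages of the lineage, was 2.05-fold lower (1.98 to 2.13), and Olig1 was at 864 and 873 CPM. Olig2 was at 496 CPM (control) and 648 CPM (Seh1cKO), 1.31-fold higher (1.27 to 1.34). The higher ratios of Mest, Ndn, Peg3, Plagl1 and Grb10 and the lower ratios of H19, Igf2 and Cdkn1c were measured in the same pair of libraries as these marker differences, and the part of the markers in them was not tested.

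**Figure D5:**
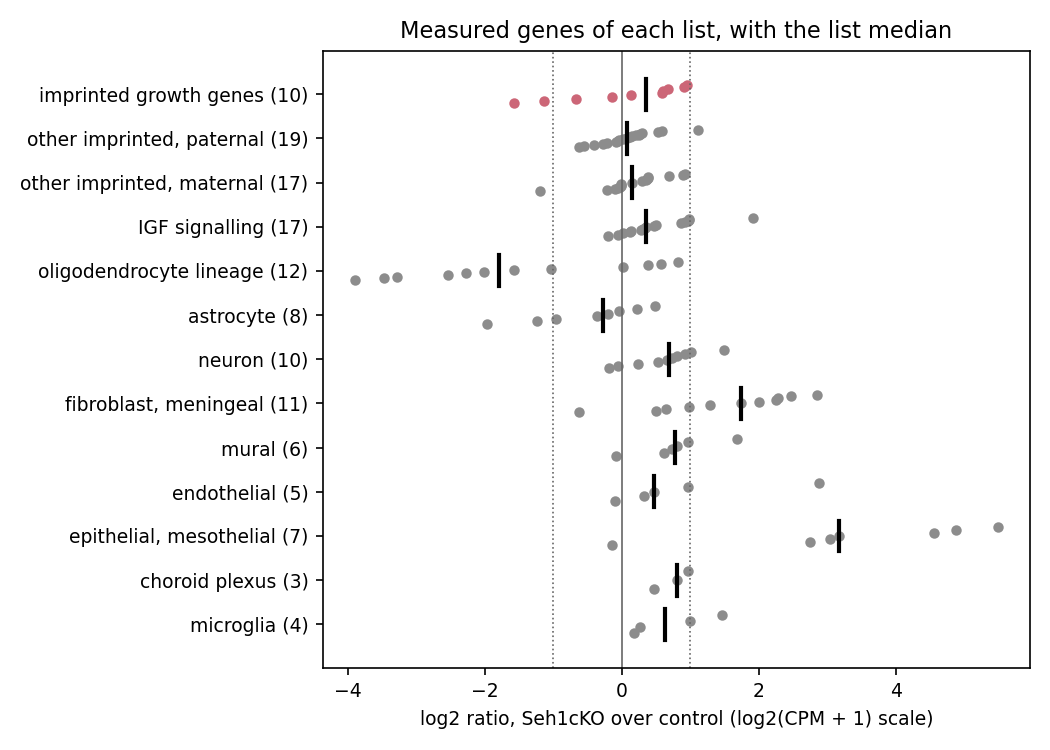
Log2 ratio (log2(CPM + 1) scale, Seh1cKO over control) of the measured genes of each list, 1 point per gene, with the list median as a bar and the number of measured genes in parentheses; dotted lines mark 2-fold. The members spread to both sides of 0 with a median of 0.36, whereas fibroblast and epithelial markers lie mostly to the right (medians 1.75 and 3.18) and oligodendrocyte lineage markers mostly to the left (median -1.79).

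The authors' deposited table of changed genes lists 896 genes, 659 higher and 237 lower in Seh1cKO, and holds Cdkn1c and H19 of the 10 members, both as lower. Among measured genes, 1.62% were listed there as lower and 4.26% as higher. The log2 fold change given in the authors' deposited table was -1.65 for Cdkn1c and -1.14 for H19. Its false discovery rates are not used here, because each group is 1 library.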

How the data were processed

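Gene tables of 2 libraries were used. Per the labels, total RNA was made into Illumina libraries, and the build mm10 and the tools HTSeq and StringTie are given, without their roles, in the submitters' processing notes. The sources used here do not give the aligner or the use of strand. The authors deposited expected counts per gene (29.3% and 29.5% of listed values were not whole), FPKM, and a length per gene and library. The authors' deposited table of changed genes holds log2 fold changes of Seh1cKO over control, made before deposit by a method that the sources used here do not give. The same deposited table holds p-values and false discovery rates (FDR), whose test is likewise not stated. Expected counts were rounded and divided by the library total to give CPM. Log2 ratios used log2(CPM + 1), and measured genes reached 1 CPM on average. Ratios have exact 95% intervals from the 2 counts. They were tested on simulated independent counts, which checks the calculation and cannot show coverage of the spread between real libraries. No per-sample column was left unmapped (0). Python 3.11.15, numpy 2.4.6, pandas 2.3.3, scipy 1.17.1, matplotlib 3.10.9, R 4.3.3 and edgeR 4.0.16 (TMM factors only) were used. Strand, overlaps of members with annotated genes, and isoforms came from GENCODE M21. Sequences, gene positions, neighbours, distances and the overlap of Peg3os with Peg3 came from RefSeq, GRCm38.p6.

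The members and gene lists were chosen with earlier results of these data known. By rule, the text could name all members, Seh1l and measured genes of the members' domains. It could also name the 4 largest absolute log2 ratios of every other list and the 3 most abundant markers of each cell type list. Genes named for their role (IGF receptors, Igf1, Irs2, Igfbp2, Igfbp5, Grb14, Cdkn1b, Pdgfra and Cspg4) fall outside this rule. Unmeasured domain genes and markers, Uty, Sox10, A230057D06Rik, A330076H08Rik, Peg3os and Tnfrsf23 fall outside it too. Alternatives were other pseudocounts, scalings, floors, the deposited FPKM and unrounded counts.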

Additional observations from a re-analysis of the deposited data

How the results depend on the processing

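With 1 library per group, every difference rests on a single pair of libraries, whose sex-linked genes and markers of other cell types differed too. No paired analysis was possible because each group has 1 library, so the groups share fewer than 2 replicate numbers. Counting error limits Dlk1 and the domain genes with under 40 reads. In all 10 alternatives (pseudocounts of 0.1 and 5 CPM, median of ratios, upper quartile, TMM, deposited FPKM, no floor, a floor of 5 CPM, unrounded counts, and, added after seeing the data, leaving out chromosomes X and Y), 0 members were at least 2-fold higher, 2 were at least 2-fold lower, and no member changed direction. The members' median ranged from 0.28 to 0.38. Igf2 was lowest with the deposited FPKM, at -0.92, and Cdkn1c ranged from -1.66 to -1.34.

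The median of all genes, 0.07, turned to -0.0050 with the median of ratios and -0.0114 with TMM. With the same 2 scalings the median of the other paternally expressed genes turned to -0.0031 and -0.0098, and that of the other maternally expressed genes to -0.0098 with a floor of 5 CPM. Per FPKM, H19 over Igf2 was 27.1 in control and 23.9 in Seh1cKO, and Meg3 over Dlk1 was 21.9 in control. The count of all genes at least 2-fold higher was 637 with a pseudocount of 0.1, 141 with one of 5, 204 with FPKM and 228 with a floor of 5 CPM, against 394. The count lower was 116 with a pseudocount of 5, against 178. The share of these calls that were higher, 68.9%, became 54.9% with a pseudocount of 5, 58% with FPKM and 60% with TMM. The cause of these moves was not tested.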

Other observations

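Genes that write, read or erase imprint marks stayed within 2-fold. Of 17 listed genes 14 were measured, 11 with a log2 ratio above 0 and a median of 0.10. Of all 13758 measured genes, 13186 lay within 2-fold and 60.9% had a log2 ratio above 0, with a median of 0.07. Uhrf1, which brings the maintenance methyltransferase to newly copied DNA, was at 39.7 CPM (control) and 76.1 CPM (Seh1cKO), 1.92-fold higher (1.76 to 2.09). Dnmt1, that methyltransferase, was at 98.7 and 136 CPM, 1.37-fold higher (1.30 to 1.46). Zfp57, a zinc finger protein that binds methylated imprint control regions, was 1.33-fold higher (1.16 to 1.52), and Setdb1, a histone methyltransferase, 1.20-fold higher (1.11 to 1.30).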
